A study of Homo sapiens with 9 samples.

Results

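The 3601 features described here are rows of the MiTranscriptome catalogue in a count table of PANC-1 cells. They were chosen by 2 criteria, the catalogue's name in the row label and a mean raw count of at least 10 over 9 libraries. They are 3601 of the table's 43298 MiTranscriptome rows (8.32%) and of its 112171 annotated features. Of the MiTranscriptome rows left out, 14086 had no count in any library. The lowest mean count among the members was 10 and the highest outside was 9.89. The mean count was thus used to choose the members, and it is given only as a description.

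PANC-1 is an established human line from a pancreatic ductal carcinoma. All 9 libraries came from cells kept under hypoxia for 12 h, with no normoxic group, and 3 libraries were made for each of 3 treatments. The controls received DMSO at 0.04%, the second group 42 nM rakicidin A, a cyclic lipodepsipeptide made by bacteria, and the third group 41 nM BE-43547A1. Total RNA was extracted and sequenced as 76-base read pairs. Whether the 3 libraries of each treatment were grown as separate cultures is not stated, so every p-value reflects library-to-library spread that could be purely technical.

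MiTranscriptome is a catalogue of transcripts assembled by computer from RNA sequencing of many tumours, normal tissues and cell lines. Most of its entries that lie outside known genes are long RNAs with no known protein product. Such RNAs are typically scarce and often limited to few tissues, and the function of most is unknown. GENCODE is the curated annotation of human genes, which holds protein-coding genes, known long noncoding RNAs and pseudogenes. In this table the members carry identifiers only, with no symbol, position or sequence, so where they lie relative to GENCODE genes was not analysed here.

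Total counts on features ran from 27696394 to 30596594 in the DMSO libraries, from 26203326 to 34870860 with rakicidin A and from 39807220 to 45048999 with BE-43547A1. The BE-43547A1 libraries held 41.5% of all counts, so a minimum on the mean raw count gave them the most weight. DMSO replicate 3 stood apart. Its counts differed from those of DMSO replicate 1 by a chi-square of 19.96 per degree of freedom, the highest of the 9 pairs within a group, and the lowest was 3.08. Of 5 epithelial genes, KRT8, KRT18 and KRT19 reached 731 to 1302, 777 to 1023 and 887 to 1349 CPM over the 9 libraries. CPM are counts scaled to library size, with TMM factors. EPCAM stood at 13.9 to 19.9 CPM and CDH1 at 4.51 to 8.28 CPM. The sum of the 5 was 2841 to 3044 CPM in DMSO, 2423 to 2539 with rakicidin A and 3369 to 3631 with BE-43547A1. Of 3 leukocyte genes, PTPRC had 9 counts in all, CD14 90 and ITGAM 599, and their summed level was 1.53 to 1.82 CPM in DMSO, 1.60 to 2.06 with rakicidin A and 2.77 to 3.46 with BE-43547A1. Of 4 stromal genes, COL1A1 reached 2.98 to 9.43 CPM and COL1A2 at most 0.247 CPM, and the sum of the 4 was 8.53 to 12.6 CPM in DMSO, 4.88 to 6.27 with rakicidin A and 6.35 to 8.28 with BE-43547A1. The part of these genes' differences in the member counts was not tested. Each of 4 acinar genes had 1 to 3 counts in total.

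The members were weakly covered as a group. Their median mean count was 23.1, 1556 of them had a mean under 20, and 30 reached 640 or more. A few held much of the signal: the 10 members with the highest mean counts took 30.1% of all member counts, and 4 of the abundant ones, described separately, took 22.4%. Compared with GENCODE rows in the same bin of mean count, members varied more between libraries of 1 group. Between mean counts of 10 and 20, the median SD of log2 CPM within groups was 0.403 for members and 0.391 for GENCODE rows. Between 320 and 640 it was 0.171 against 0.105. At 640 or more it was 0.165 against 0.0755. That bin has no upper limit and holds 30 members and 7352 GENCODE rows, so mean counts are not matched within it.

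The share of all feature counts that fell on members was lowest in DMSO. It was 0.519%, 0.520% and 0.662% in DMSO replicates 1 to 3, which gave 0.567% ± 0.0822 (SD, n = 3). With rakicidin A it was 0.862%, 0.654% and 0.837%, or 0.784% ± 0.114 (SD, n = 3). With BE-43547A1 it was 0.850%, 0.844% and 0.783%, or 0.825% ± 0.0371 (SD, n = 3). These shares are relative, so fewer member transcripts per cell and more RNA from other features cannot be told apart. The highest DMSO library, replicate 3, lay above the lowest rakicidin A library, whereas all BE-43547A1 libraries lay above all DMSO libraries. With 3 libraries against 3, no exact test of a single value can go below 0.10, so none is given.

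Removing 4 abundant members, G003293, G017279, G051442 and G020659, reversed the order of DMSO and rakicidin A. These 4 were chosen after their values were seen, because their counts rose and fell together between libraries. Without them, members held 0.512%, 0.494% and 0.532% of counts in DMSO, 0.453%, 0.456% and 0.444% with rakicidin A, and 0.743%, 0.698% and 0.656% with BE-43547A1. The 3 groups then did not overlap, with rakicidin A lowest and BE-43547A1 highest. All MiTranscriptome rows together, with no minimum on the mean count and without the same 4, gave the same order at 0.625% ± 0.0258 (SD, n = 3) in DMSO, 0.523% ± 0.00703 with rakicidin A and 0.814% ± 0.0491 with BE-43547A1.

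**Figure D1:**
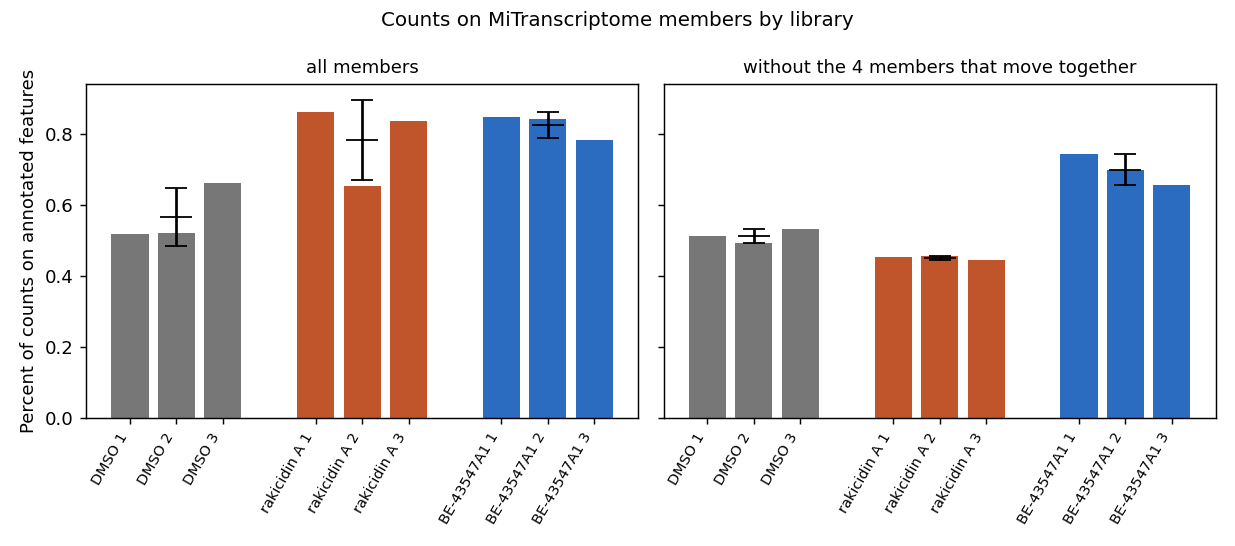
Percent of all feature counts on the 3601 members in each of 9 libraries (y axis), by library (x axis, coloured by treatment), with all members (left) and without the 4 abundant members that moved together (right); bars are libraries, and the black lines over each group are its mean with SD (n = 3). With all members, 1 DMSO library reaches into the rakicidin A range, and without the 4 the groups separate, from 0.444% in the lowest rakicidin A library to 0.743% in the highest BE-43547A1 library.

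Other rows of the table whose names mark them as noncoding or uncharacterised did not follow that order. GENCODE rows named LINC, the systematic name of long intergenic noncoding RNAs, held 0.0871% to 0.0922% of counts in DMSO, 0.0635% to 0.0651% with rakicidin A and 0.0594% to 0.0633% with BE-43547A1. GENCODE rows known only by a clone name held 1.51% to 1.58%, 1.25% to 1.33% and 1.418% to 1.432%. In both sets the DMSO libraries were highest. Reads on no feature made up 20.3% to 20.8% of all reads in the table in DMSO, 16.4% to 17.96% with rakicidin A and 18.1% to 19.2% with BE-43547A1, so the groups also differed in how many reads fell outside both catalogues. Whether that difference and the member shares are linked was not tested.

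The 4 abundant members varied widely among the DMSO libraries. G003293, the member with the highest mean count, stood at 27.0, 117 and 736 CPM in DMSO replicates 1 to 3, at 2807, 1397 and 2778 CPM with rakicidin A, and at 616, 872 and 756 CPM with BE-43547A1. All 3 rakicidin A libraries exceeded every other library, and the BE-43547A1 libraries overlapped DMSO replicate 3. The DMSO libraries alone spanned 27.3-fold for G003293. For G017279, G051442 and G020659 they spanned 11.3-fold, 10.4-fold and 20.3-fold, each with replicate 3 highest. The mitochondrial ribosomal RNA genes MT-RNR1 and MT-RNR2 were also highest in that DMSO library, at 4.89, 5.75 and 14.8 CPM and at 23.0, 27.2 and 95.5 CPM in DMSO replicates 1 to 3. MT-RNR1 stood at 12.4 to 23.6 CPM with rakicidin A and 19.5 to 27.5 with BE-43547A1, and MT-RNR2 at 65.1 to 97.8 and 151 to 175 CPM. Unlike the 4 members, both had their highest library with BE-43547A1. The part of ribosomal RNA content in the change of the 4 members was not tested.

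All 4 rose with rakicidin A against DMSO. The log2 fold changes, with standard errors, were 2.99 ± 0.67 for G003293, 2.75 ± 0.50 for G017279, 3.08 ± 0.49 for G051442 and 3.09 ± 0.59 for G020659 (adjusted p from 1.98e-05 to 0.000699, edgeR's quasi-likelihood test with Benjamini-Hochberg adjustment over all 22353 features tested). Without DMSO replicate 3 the changes of G003293 and G020659 were 5.02 and 4.996, each more than 1.5 times as large, and those of G017279 and G051442 were 3.91 and 4.33. Against DMSO, BE-43547A1 gave 1.35 ± 0.63 for G003293, which did not pass (adjusted p = 0.0644, same test) but gave 3.38 without DMSO replicate 3 (adjusted p = 6.77e-08). Without DMSO replicate 1 or 2 it did not pass (adjusted p = 0.103 and 0.190, same test). With all 9 libraries it passed without the filter, and with limma-voom at 2.47 (adjusted p = 0.00230). With a replicate block it passed at 2.08 (adjusted p = 0.00813, edgeR's quasi-likelihood test). G017279, G051442 and G020659 rose with BE-43547A1 by 1.64 ± 0.48, 1.67 ± 0.47 and 1.502 ± 0.56 (adjusted p = 0.00523, 0.00377 and 0.0237, same test). Without DMSO replicate 3 these changes were 2.79, 2.91 and 3.40, each more than 1.5 times as large, and without DMSO replicate 1 that of G020659 was 0.97. The call of G020659 was lost without DMSO replicate 2 or BE-43547A1 replicate 2 (adjusted p = 0.0840 and 0.0547, same test). It was also lost on total counts alone (adjusted p = 0.0552, same test).

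Between the compounds, G003293, G051442 and G020659 were higher with rakicidin A, by 1.64 ± 0.63, 1.41 ± 0.45 and 1.59 ± 0.55 on the log2 scale (adjusted p = 0.0415, 0.0161 and 0.0233, edgeR's quasi-likelihood test with Benjamini-Hochberg adjustment). The call of each was lost when 1 of several libraries was left out, rakicidin A replicate 1 and BE-43547A1 replicate 1 among them for all 3. With DESeq2 the call of G051442 was lost (adjusted p = 0.114). DESeq2 gave no result for G003293 or G020659 in any comparison. On total counts alone the call of G003293 was lost (adjusted p = 0.0602, edgeR's quasi-likelihood test). In the fit of the 6 libraries compared, the adjusted p of G003293, G051442 and G020659 was 1.11e-07, 6.29e-07 and 2.51e-07 (same test). Without DMSO replicate 3 it was 6.94e-05, 2.57e-05 and 4.55e-06 (same test). G017279 differed by 1.11, which did not pass (adjusted p = 0.0595, same test). It passed in the fit of the 6 libraries compared (adjusted p = 5.28e-05), without DMSO replicate 1, 2 or 3 (0.00263, 0.0454 and 0.00167) and without rakicidin A replicate 2 (0.0336). Over the 9 libraries the log2 CPM of G003293 had a Pearson r of 0.999 with G020659, 0.994 with G051442 and 0.992 with G017279. A GENCODE row known by a clone name, CTD-2328D6.1, had a similar pattern (r = 0.994 over 9 libraries), at 11.1, 36.6 and 218 CPM in DMSO, 1158, 438 and 935 with rakicidin A, and 157, 249 and 214 with BE-43547A1. These correlations describe 9 libraries that share the same 3 treatments.

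**Figure D2:**
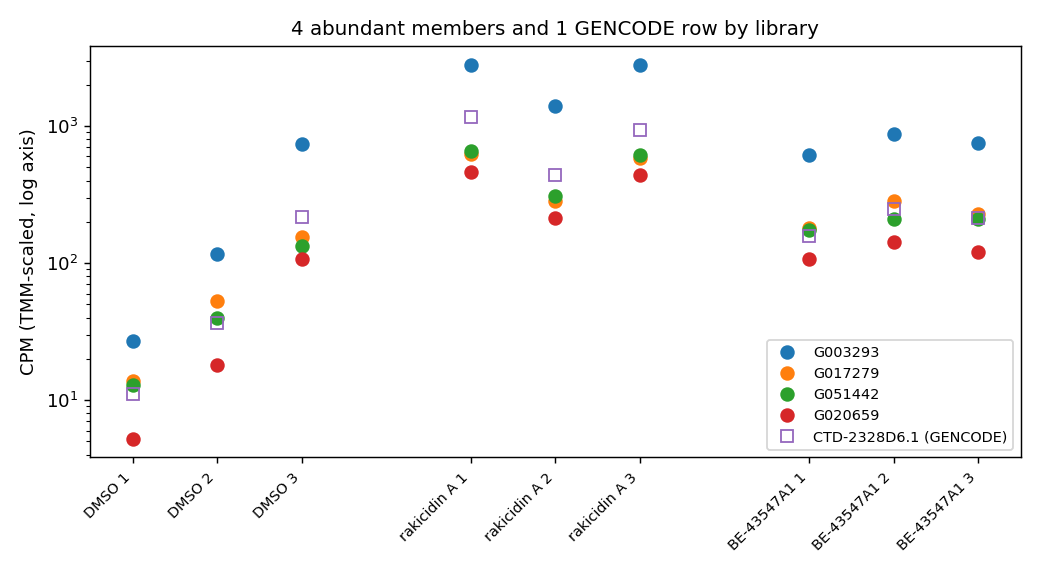
CPM on a log axis (y axis) of the 4 co-moving abundant members (filled) and of the GENCODE row CTD-2328D6.1 (open squares) in each of 9 libraries (x axis). DMSO replicate 3 lies within or near the BE-43547A1 libraries for each member, and for G003293 the DMSO libraries run from 27.0 to 736 CPM.

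A pair of other abundant members, also chosen after their values were seen, behaved differently and were close between replicates. G051436 stood at 89.5, 96.6 and 75.4 CPM in DMSO, 135, 164 and 163 with rakicidin A, and 264, 293 and 286 with BE-43547A1. G051444 stood at 9.75, 10.4 and 7.62 CPM in DMSO, 95.4, 121 and 117 with rakicidin A, and 234, 241 and 245 with BE-43547A1. In both, the 3 groups did not overlap and the order was DMSO, rakicidin A, BE-43547A1. G051444 rose by 3.59 ± 0.10 with rakicidin A and by 4.70 ± 0.10 with BE-43547A1, and was lower by 1.11 ± 0.09 with rakicidin A than with BE-43547A1 (adjusted p = 7.72e-16, 2.90e-17 and 1.04e-08, edgeR's quasi-likelihood test with Benjamini-Hochberg adjustment). G051436 rose by 0.82 ± 0.09 and 1.69 ± 0.09 (adjusted p = 9.65e-08 and 3.60e-12, same test).

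Of the 3601 members, 3588 had counts enough for the test, and the other 13 had mean counts of 10 to 11.1. Passing required the filter's minimum CPM in 3 libraries. For 281 of the 3601 members, every library at that minimum, whatever their number, belonged to 1 group. The counts that follow describe the members tested and not all members. The 2 comparisons with DMSO share the same 3 control libraries.

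With rakicidin A against DMSO, 1103 of 3588 members were higher (30.7%) and 947 were lower (26.4%), and 1538 did not pass. Over all features tested, 31.9% were higher and 32.7% lower, so the members' shares were near to or under the background. The median log2 fold change was 0.08 over members and -0.02 over all features. The spread of members was wider, from -2.28 to 2.72 between the 5th and 95th percentiles against -1.46 to 1.70 for GENCODE rows of mean count at least 10. At a change of more than 2-fold, 23.0% of members were higher and 19.6% lower, against 14.0% and 13.8% of all features. The percentiles and 2-fold shares, here and in the comparisons below, were not matched on mean count. GENCODE rows mostly have higher counts than the members. The split by direction was not stable. On total counts alone, 782 members were higher and 1312 lower, with the median of all features at -0.38. In the fit of the 6 libraries compared, 884 were higher and 919 lower. Leaving out DMSO replicate 3 gave 1051 higher and 875 lower.

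With BE-43547A1 against DMSO, 1679 of 3588 members were higher (46.8%) and 824 lower (23.0%), and 1085 did not pass. Over all features tested, 35.3% were higher and 35.1% lower. The median log2 fold change of members was 0.53, against -0.04 for GENCODE rows of mean count at least 10. At a change of more than 2-fold, 37.2% of members were higher and 16.4% lower, against 17.5% and 14.1% of all features and 12.9% and 11.9% of those GENCODE rows. Without DMSO replicate 3, 1629 members were higher and 768 lower. When members were instead chosen by mean CPM, which weights the libraries equally, 3554 rows qualified, 3499 of them the same, and the median was 0.44.

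Between the 2 compounds, at 42 and 41 nM and the same time, 235 of 3588 members were higher with rakicidin A (6.55%) and 1230 were lower (34.3%). Over all features tested, 24.1% were higher and 22.5% lower. The remaining 2123 members did not pass, which does not show that the compounds acted alike on them. The median member was lower with rakicidin A by a log2 fold change of -0.41, with 5th and 95th percentiles of -1.78 and 0.79. The median over all GENCODE rows of mean count at least 10 stood at 0.03. These rows mostly have higher counts than the members, and medians matched on mean count are given below. At a change of more than 2-fold, 87 members were higher with rakicidin A (2.42%) and 735 lower (20.5%), against 2.16% and 7.53% of all features.

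GENCODE rows have higher counts than most members, which makes a call easier, so both were set side by side in 7 bins of mean count, from 10 to 20 up to 640 and more. Weighted to the members' numbers per bin, 18.8% of GENCODE rows were higher and 30.5% lower with rakicidin A against DMSO. With BE-43547A1 against DMSO these were 28.0% and 30.7%, and between the compounds 8.997% were higher with rakicidin A and 19.7% lower. The GENCODE bin medians of log2 fold change, weighted likewise, averaged -0.19 for rakicidin A against DMSO, -0.03 for BE-43547A1 against DMSO and -0.15 between the compounds. The members' medians were 0.08, 0.53 and -0.41. The members' share of higher features exceeded that of GENCODE rows in 7 of 7 bins for each compound against DMSO. Between the compounds, their share of features lower with rakicidin A exceeded that of GENCODE rows in 7 of 7 bins.

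The members' shares climbed with the mean count. For BE-43547A1 against DMSO, 38.0% of the 1543 members with mean counts of 10 to 20 were higher, 55.8% of the 590 between 40 and 80, and 83.3% of the 30 at 640 or more. The medians in the same bins were 0.38, 0.66 and 1.52. For rakicidin A against DMSO the shares higher were 22.4%, 41.4% and 70.0%, and the medians -0.08, 0.30 and 0.86. The share lower with rakicidin A than with BE-43547A1 went from 24.8% in the lowest bin to 60% in the highest. The mean count that defines the bins includes the treated libraries, so a member that rose moved towards a higher bin. The GENCODE rows, binned likewise, were higher with BE-43547A1 in 25.3% to 41.4% of cases over the 7 bins.

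**Figure D3:**
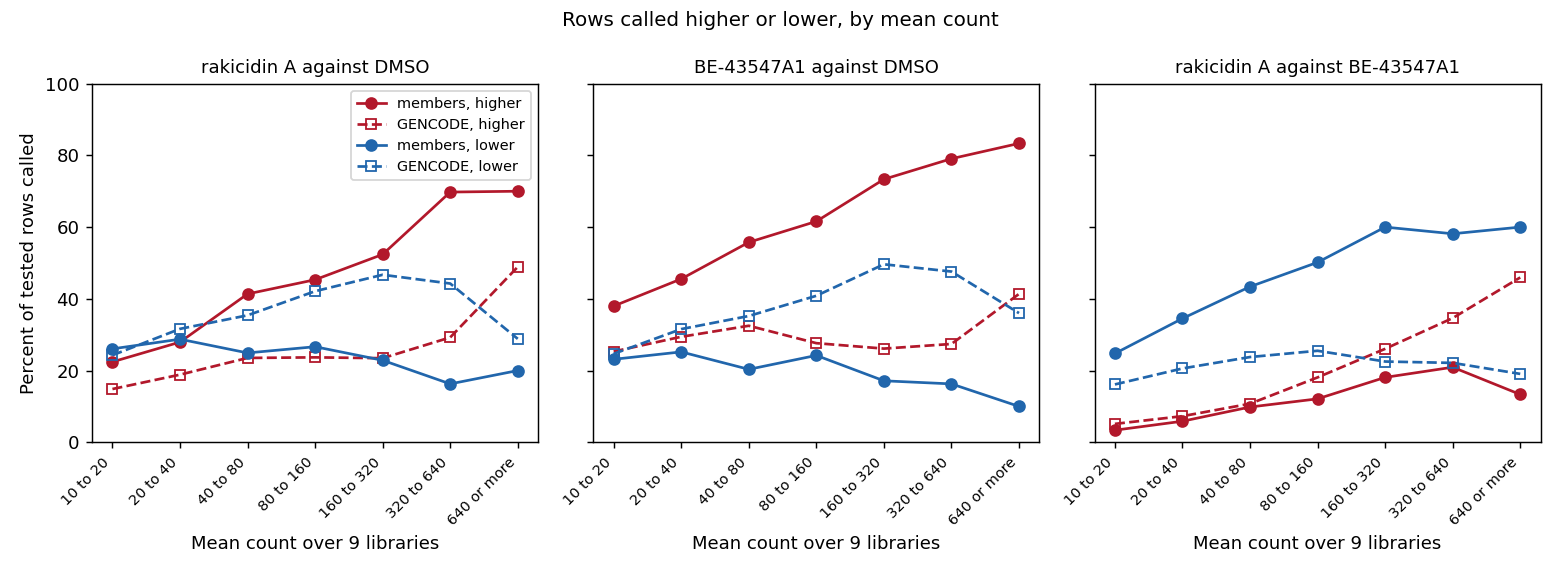
Percent of features tested that were called higher (red) and lower (blue) (y axis) in 7 bins of mean raw count (x axis), for members (filled circles) and GENCODE rows (open squares), in the 3 comparisons. For BE-43547A1 against DMSO the members higher go from 38.0% to 83.3% from the lowest bin to the highest.

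The treatment with the highest mean CPM was BE-43547A1 for 1897 of the 3588 members (52.9%), DMSO for 1189 (33.1%) and rakicidin A for 502 (14.0%). Among GENCODE rows of mean count at least 10 these shares were 27.6%, 42.0% and 30.4%, and weighted to the members' bins 36.2%, 45.2% and 18.6%. The raw-count rule gave the deeper BE-43547A1 libraries more weight, and it applied to the GENCODE rows too.

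**Figure D4:**
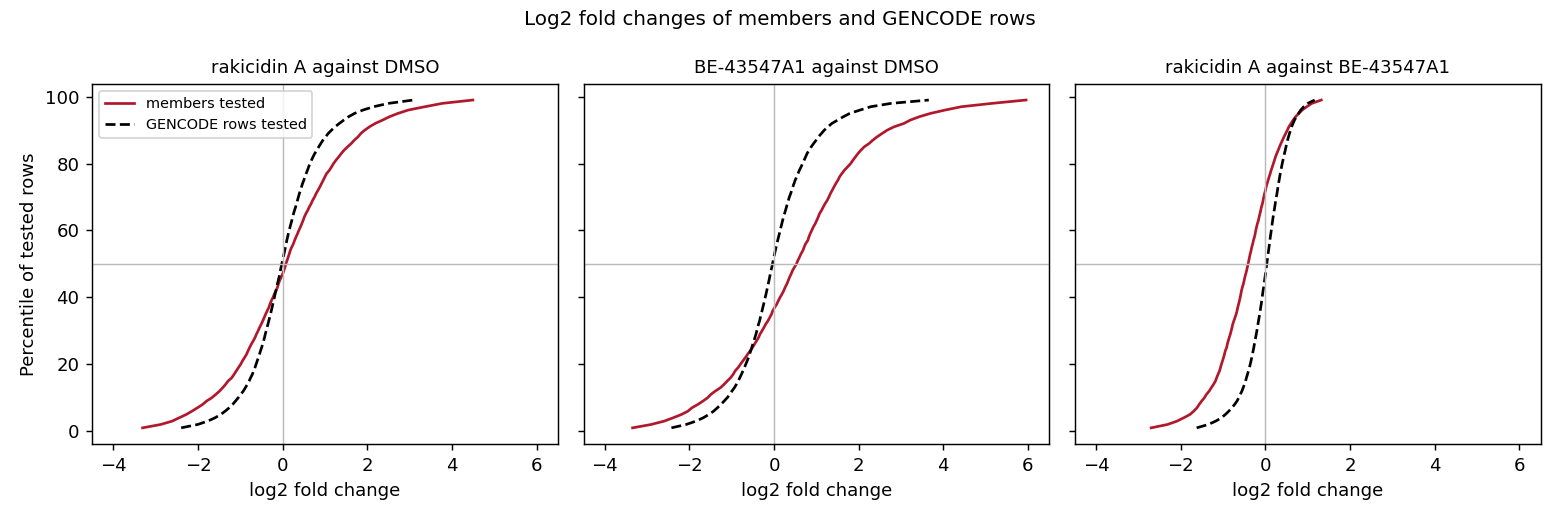
Percentile among the features tested (y axis) against log2 fold change (x axis) for members (red) and for GENCODE rows with mean count at least 10 (dashed black), in the 3 comparisons. The members' curves are less steep than those of GENCODE rows against DMSO, and their median is 0.53 for BE-43547A1 against DMSO and -0.41 for rakicidin A against BE-43547A1. Members and GENCODE rows were not matched on mean count here.

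LINC and clone-named rows gave different counts from members. Of the 83 LINC rows of mean count at least 10, 12 were higher (14.5%) and 43 lower (51.8%) with rakicidin A against DMSO. Over all features tested these shares were 31.9% and 32.7%. With BE-43547A1 against DMSO, 17 were higher (20.5%) and 49 lower (59.0%), against 35.3% and 35.1% of all features. Between the compounds, 16 were higher (19.3%) and 12 lower (14.5%) with rakicidin A, against 24.1% and 22.5% of all features. Of 2761 clone-named rows tested, 932 were higher (33.8%) and 796 lower (28.8%) with BE-43547A1 against DMSO, with a median log2 fold change of 0.10. Both shares were under those of all features. Between the compounds, 330 clone-named rows were higher with rakicidin A (12.0%) and 665 lower (24.1%), with a median of -0.13. GENCODE rows weighted to the members' bins of mean count gave 8.997% higher and 19.7% lower, and their weighted bin medians averaged -0.15. The lean of clone-named rows in the direct comparison was thus not particular to them, and their median was smaller in size than the members'.

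A few members had counts only in treated cells. In all 3 DMSO libraries 16 of 3588 members had no count (0.446%), against 6 GENCODE rows of mean count at least 10 (0.0343%). No member was without counts in all 3 libraries of either compound. The mean CPM of the 16 ranged from 0.0720 to 1.09 with rakicidin A and from 0.503 to 3.51 with BE-43547A1. With no count in DMSO, only a lower bound on a fold against it can be given. The rule on the mean count could retain such a row only if its treated libraries were high, and it gave the deeper BE-43547A1 libraries the most weight, so nothing is read from the difference between the compounds in these 16.

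The members named next were taken by a fixed rule, up to 2 each way per comparison, from members past the threshold that averaged 1 CPM or more and whose groups did not overlap, ranked by log2 fold change. Their changes over DMSO or between compounds were therefore large by choice. G019473 had no count in DMSO, stood at 1.38, 1.12 and 0.773 CPM with rakicidin A and at 2.86, 2.62 and 3.09 CPM with BE-43547A1. G027585 likewise had none in DMSO, 0.364, 0.608 and 0.558 CPM with rakicidin A, and 3.13, 3.51 and 3.90 CPM with BE-43547A1. Against a floor of 3 counts over the DMSO group, G019473 was at least 36.8-fold higher with rakicidin A and at least 94.6-fold higher with BE-43547A1, and G027585 at least 17.0-fold and at least 116-fold. Between the compounds, rakicidin A against BE-43547A1, their log2 fold changes were -1.37 ± 0.20 and -2.77 ± 0.22. Both belong to the 16 members without a DMSO count, which only high treated libraries could retain. Nothing is therefore read from this difference either.

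The largest falls ran in the same sense with both compounds. G011836 stood at 14.3, 13.1 and 14.0 CPM in DMSO, 0.873, 0.703 and 1.12 with rakicidin A, and 1.19, 1.66 and 1.54 with BE-43547A1, so that both treated groups lay far below the controls. It fell by 3.97 ± 0.16 on the log2 scale with rakicidin A and by 3.24 ± 0.13 with BE-43547A1 (adjusted p = 7.74e-14 and 1.52e-13, edgeR's quasi-likelihood test with Benjamini-Hochberg adjustment). G051294 went from 4.56, 4.71 and 3.92 CPM in DMSO to 0.255, 0.288 and 0.0430 with rakicidin A and 0.405, 0.272 and 0.392 with BE-43547A1, falls of 4.39 ± 0.28 and 3.61 ± 0.23 on the log2 scale (adjusted p = 1.01e-10 and 9.53e-11, same test). The 2 compounds did not differ past the threshold for G051294 (adjusted p = 0.137, same test), whereas G011836 was lower with rakicidin A by -0.72 ± 0.20 (adjusted p = 0.00651, same test).

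G089710 and G078665 had the largest falls with BE-43547A1. G089710 stood at 5.38, 5.91 and 5.29 CPM in DMSO, 0.473, 0.735 and 0.430 with rakicidin A, and 0.427, 0.445 and 0.392 with BE-43547A1. G078665 stood at 2.72, 2.09 and 2.93 CPM in DMSO, 0.328, 0.128 and 0.387 with rakicidin A, and 0.135, 0.173 and 0.131 with BE-43547A1. For both, the treated libraries lay below every DMSO library. The log2 fold changes of G089710 and G078665 were -3.70 ± 0.18 and -4.11 ± 0.29 with BE-43547A1, and -3.30 ± 0.19 and -3.24 ± 0.29 with rakicidin A (adjusted p from 2.72e-12 to 1.22e-08, edgeR's quasi-likelihood test with Benjamini-Hochberg adjustment). Neither differed past the threshold between the compounds (adjusted p = 0.249 and 0.137, same test).

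Between the compounds, G036263 and G048250 were higher with rakicidin A. G036263 stood at 0.122, 0.0948 and 0.0853 CPM in DMSO, 2.44, 2.56 and 2.75 with rakicidin A, and 0.540, 0.445 and 0.732 with BE-43547A1. It was above DMSO with each compound, and the rakicidin A level exceeded that with BE-43547A1 by 2.17 ± 0.21 on the log2 scale (adjusted p = 1.43e-07, edgeR's quasi-likelihood test with Benjamini-Hochberg adjustment). G048250 took the other form: at 2.14, 1.77 and 2.16 CPM in DMSO and 1.67, 1.89 and 2.45 with rakicidin A, it overlapped between these groups, and it was at 0.450, 0.494 and 0.732 with BE-43547A1. It fell by 1.87 ± 0.22 on the log2 scale with BE-43547A1 against DMSO (adjusted p = 6.00e-07, same test), and its change with rakicidin A did not pass (adjusted p = 0.907, same test).

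G004866 and G067749 were lower with rakicidin A than with BE-43547A1. G004866 had 0, 1 and 2 counts in DMSO, stood at 0.255, 0.352 and 0.129 CPM with rakicidin A, and at 5.56, 4.72 and 4.39 CPM with BE-43547A1. Its log2 fold change between the compounds was -4.24 ± 0.26. Before TMM scaling, only its BE-43547A1 libraries reached the filter's minimum CPM. The row was thus retained only through the group where it was high, and nothing is read from this difference. G067749 stood at 0.428, 0.284 and 0.853 CPM in DMSO, 1.13, 1.12 and 0.601 with rakicidin A, and 7.33, 9.44 and 4.97 with BE-43547A1, with overlap of DMSO and rakicidin A. G067749 was lower with rakicidin A than with BE-43547A1 by -2.90 ± 0.27 (adjusted p = 1.08e-07, edgeR's quasi-likelihood test with Benjamini-Hochberg adjustment). Its difference between rakicidin A and DMSO did not pass (adjusted p = 0.0701, same test).

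**Figure D5:**
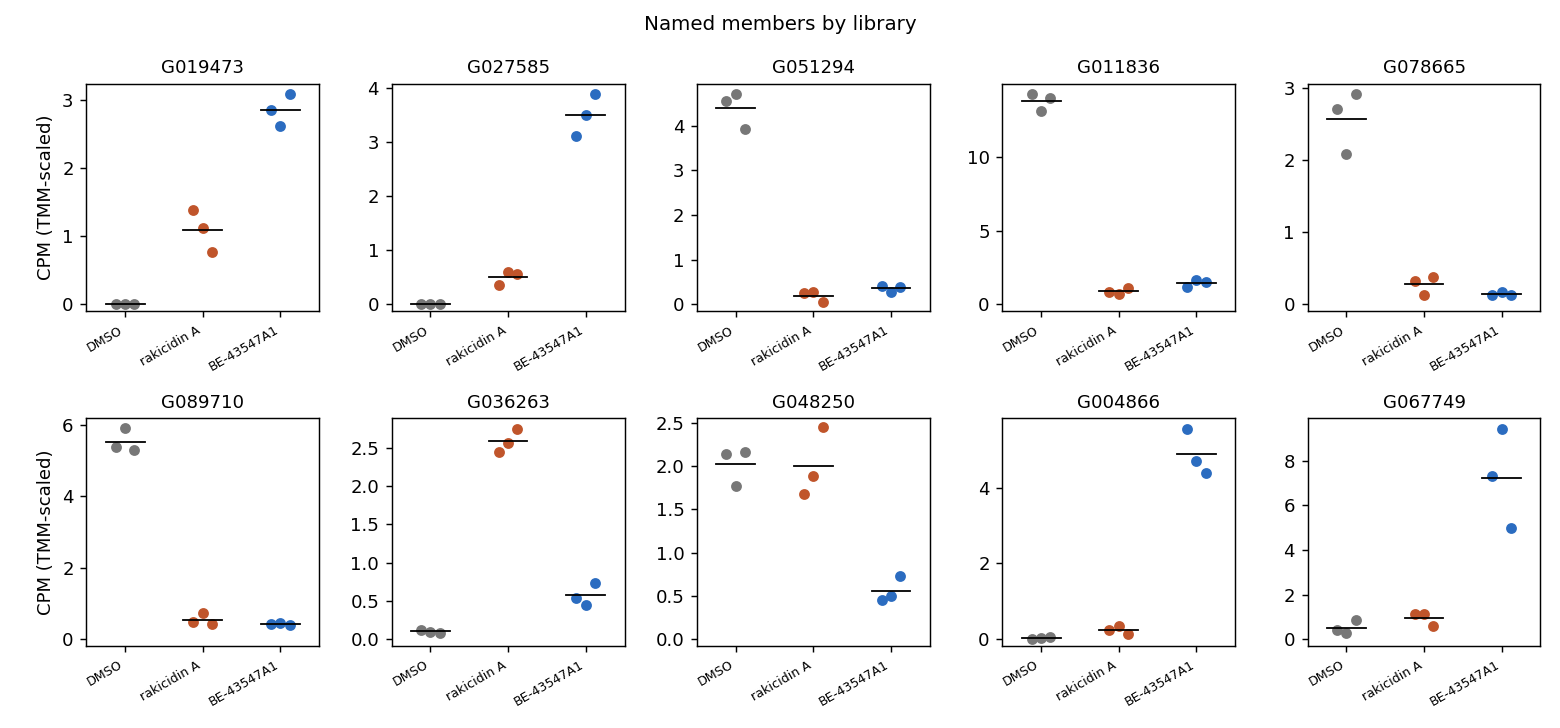
CPM (y axis, a linear scale of its own in each panel) of the 10 members named by the rule, by treatment (x axis); each point is 1 library and each line a group mean (n = 3). G019473 and G027585 have no count in DMSO, and G004866 lies at 4.39 to 5.56 CPM with BE-43547A1 and at or under 0.352 CPM in the other libraries.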

How the data were processed

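RNA from 9 libraries of PANC-1 cells was sequenced. The deposited table holds raw read counts per feature, which the authors made with TopHat2 and HTSeq, per the submitters' processing notes, which also name GRCh37 and hg19. For settings and strand handling, nothing is given in the sources used here, so how reads shared between a MiTranscriptome row and a GENCODE gene were counted is unknown. The 5 summary rows of the table were set aside, and 0 other sample columns were left unused. Groups were taken from sample titles.

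Counts were tested with edgeR 4.0.16 in R 4.3.3 on all 22353 features that passed filterByExpr (minimum count 10, in 3 libraries), with TMM scaling, 1 mean per group over 9 libraries and 6 residual degrees of freedom. A quasi-likelihood test with Benjamini-Hochberg adjustment over all of them was called at an adjusted p under 0.05. Log2 CPM used a prior count of 2. Standard errors are the log2 fold change divided by the square root of F. The script was tested on simulated data. Alternatives used DESeq2 1.42.0 and limma 3.58.1, other scalings, filters and member rules. A further 4 were added after the data were seen: members chosen by mean CPM, by 2 groups, without the 4 co-moving members, and after thinning to the smallest library. The rule for naming was at most 2 identifiers each way per comparison, by log2 fold change, since members have no symbol. Plots used matplotlib 3.10.9 in Python 3.11.15. The members and lists were chosen with earlier results of these data known. No sequence or coordinate is given.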

Additional observations from a re-analysis of the deposited data

How the results depend on the processing

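On total counts alone, the median log2 fold change of members was -0.279 for rakicidin A against DMSO, opposite in sign to the main value, 0.292 for BE-43547A1 against DMSO and -0.529 between the compounds. This scaling shifted the median of all features by -0.36, -0.24 and -0.12, so that the members' medians moved with it. In the fit of only the 6 libraries compared, 884 members were higher and 919 lower with rakicidin A against DMSO, and the median was -0.0249, also opposite in sign, and the cause was not tested. With a mean count of at least 50 (822 members), 396 were higher and 199 lower with rakicidin A against DMSO (median 0.386), 515 and 172 with BE-43547A1 (median 0.890), and 103 and 405 between the compounds. These counts are smaller because the set is, but a larger part of it was higher with each compound than of all 3588 members. The mean count includes the treated libraries, so a member that rose reached 50 more easily. Shares of all features at this minimum were not computed. With a log2 fold change above 1 in size required, 87 were higher and 735 lower between the compounds. With members chosen by mean CPM, the BE-43547A1 median was 0.437. DESeq2 gave 1006 higher and 830 lower, 1541 and 719, and 169 and 986 for the 3 comparisons.

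The replicate numbers showed no clear pairing. Same-numbered libraries correlated at -0.057 to 0.122 over 9 pairs, and differently numbered ones at -0.097 to 0.092 over 18 pairs. Of the 9 libraries, 3 correlated best with their own number. These values cannot show whether samples were handled in numbered sets. With the replicate block, 1094 members were higher and 931 lower with rakicidin A, 1664 and 807 with BE-43547A1, and 226 and 1217 between the compounds.

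Leaving out each library in turn gave 999 to 1120 higher and 826 to 943 lower with rakicidin A against DMSO, 1559 to 1685 and 751 to 817 with BE-43547A1, and 173 to 247 and 988 to 1252 between the compounds. Directions and sides of the threshold of all 10 rule-named members were unchanged under the alternatives that tested them. G027585 had no result for rakicidin A against DMSO in the fit of the 6 libraries compared.

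The percent of counts on members was 0.413, 0.612 and 0.622 in DMSO, rakicidin A and BE-43547A1 with reads on no feature in the denominator, and 0.376, 0.653 and 0.629 at a mean count of at least 50. Without the 10 highest members DMSO had 0.487, rakicidin A 0.409 and BE-43547A1 0.610, and without the 4 co-moving members 0.513, 0.451 and 0.699, so that DMSO lay above rakicidin A under both. Low counts limit many members: 1556 of 3601 had a mean under 20.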

Other observations

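The MiTranscriptome rows under the minimum mean count held 0.105% to 0.119% of feature counts in the DMSO libraries, 0.0706% to 0.0725% with rakicidin A and 0.109% to 0.120% with BE-43547A1. The rakicidin A libraries lay below all others, and the DMSO and BE-43547A1 libraries overlapped.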
